A study of Mus musculus with 6 samples.

Results

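The data described here are the vehicle baseline of the study: mouse CD8+ T cells that had received DMSO, the solvent, and were then activated in culture for 3 days. They were chosen by title, which gave 2 of the 6 arrays in the series, DMSO replicate 1 and DMSO replicate 2. The remaining 4 arrays, of cells given a proteasome inhibitor or a proteasome activator, were not used. The CD8+ cells came from spleens of C57BL/6 mice aged 6 weeks and were separated with a CD8+ T cell isolation kit. After the DMSO pre-treatment they were held for 3 days on immobilized antibodies to CD3 and CD28, at 5 µg/ml, in medium that contained IL-2. The series describes the cells as CD8+CD44+ lymphocytes in biological duplicate. The labels do not say which animals or cultures each array came from, or whether animals were pooled, so the difference between the arrays may be partly technical. No untreated, unstimulated or earlier sample is part of the series, so the values describe a state and not a change, and no test was made.

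Engagement of the T cell receptor together with CD28 drives a resting CD8+ T cell to grow, to shift its metabolism towards glycolysis and biosynthesis, and to divide. IL-2 sustains this growth through JAK and STAT signalling. The cells differentiate into cytotoxic effectors, which kill targets by releasing perforin and granzymes and which secrete interferon gamma, tumour necrosis factor and chemokines.

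RNA was read on Illumina bead arrays, which report the brightness of labelled RNA bound to each probe in arbitrary intensity units. The authors' values ran between 22 and 18026.1 with a median of 34.2 on both arrays, because the arrays had been brought to the same set of intensities. The most frequent value, 30.7, was taken as the level of background, and a gene was called above background where it exceeded 34.5 on both arrays. That limit was passed by 10991 of 21946 genes, or 50.1%. A further 2702 genes passed it on 1 array and 8253 on neither. As a negative set, 1280 olfactory, vomeronasal and taste receptor genes, which are not known for roles in T cells, had a median of 31.1 and a highest value of 55. Of these receptors 76, or 5.94%, were above the limit. The sum of the signal over background was concentrated in few genes: the brightest 1% (219 genes) held 36.2% of it and the brightest 10% (2195 genes) held 82.9%.

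**Figure D1:**
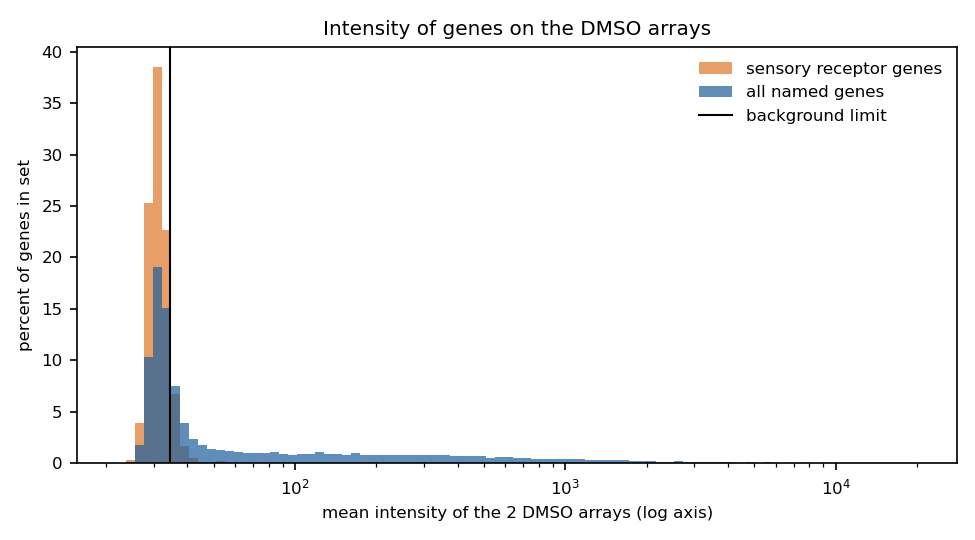
Distribution of mean intensity over the 2 DMSO arrays, on a log axis in arbitrary units, as a percent of each set, for all 21946 genes and for the sensory receptor genes, with the background limit of 34.5 marked. The receptor genes pile up at the background mode of 30.7, while the 10991 genes above background spread over a long tail up to 17575.2.

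Ranks given below count from 1 for the brightest of the 21946 genes, each represented by its probe of highest mean, and a percentile of 100 is the brightest. By construction, 10% of all genes lie in the brightest 10% and the median percentile of all genes is 50. Each count above background given below is to be read beside the 50.1% of all genes that were above it. Brightness also depends on how well a probe binds its transcript, so a rank orders array signals and not numbers of transcripts. Of the 8521 genes with several probes, 2880 had some but not all probes above background. A level given for the brightest probe may therefore not hold for the other probes of its gene. In these bulk samples, fewer cells expressing a gene and less RNA of it per cell cannot be told apart. Pairs of values are DMSO replicate 1 and then DMSO replicate 2.

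Genes of protein synthesis held the top of the signal. Of the 100 brightest genes, 32 encoded ribosomal proteins and 33 were annotated as pseudogenes, whose probes may also read the transcript of a parent gene. The brightest gene was Rps12, a protein of the small ribosomal subunit, with 17575.2 on both arrays. Rps2, of the same subunit, read 16562.7 and 16759, and Eef1a1, the elongation factor that delivers aminoacyl-tRNA, read 15360.5 and 16020.9. The 100 brightest genes spanned only 2.06-fold between the highest and the lowest mean, and their arrays differed by a median of 0.08 on the log2 scale, so the order of neighbours at the top was not resolved.

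Beyond ribosomal proteins, the 40 brightest genes with a proper gene name included 17 others. Among these were Ubb-ps and the ribosomal protein pseudogenes Rpl10-ps1, Rpl27-ps1, Rpsa-ps2, Rpsa-ps1 and Rps13-ps5, whose probes may also read parent transcripts. The 17 also included Mif, a cytokine of broad expression (16092.5 and 16176.4, rank 12). Ccl4, an inflammatory chemokine of activated T cells, was another (15723.4 and 16287.8, rank 15, with 4299.4 and 4152.5 on its other probe). Tuba1b, an alpha tubulin, read 16058.2 and 14642.3, and Npm1, a nucleolar chaperone of ribosome assembly, read 14917 and 15050.1. The other probe of Npm1 was at background, with 34.3 and 32.3. Xcl1, the chemokine that draws cross-presenting dendritic cells through XCR1, stood at rank 56 with 12876.9 and 11126.4. Thus 2 chemokines of effector T cells were among the housekeeping genes at the top of the array.

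**Figure D2:**
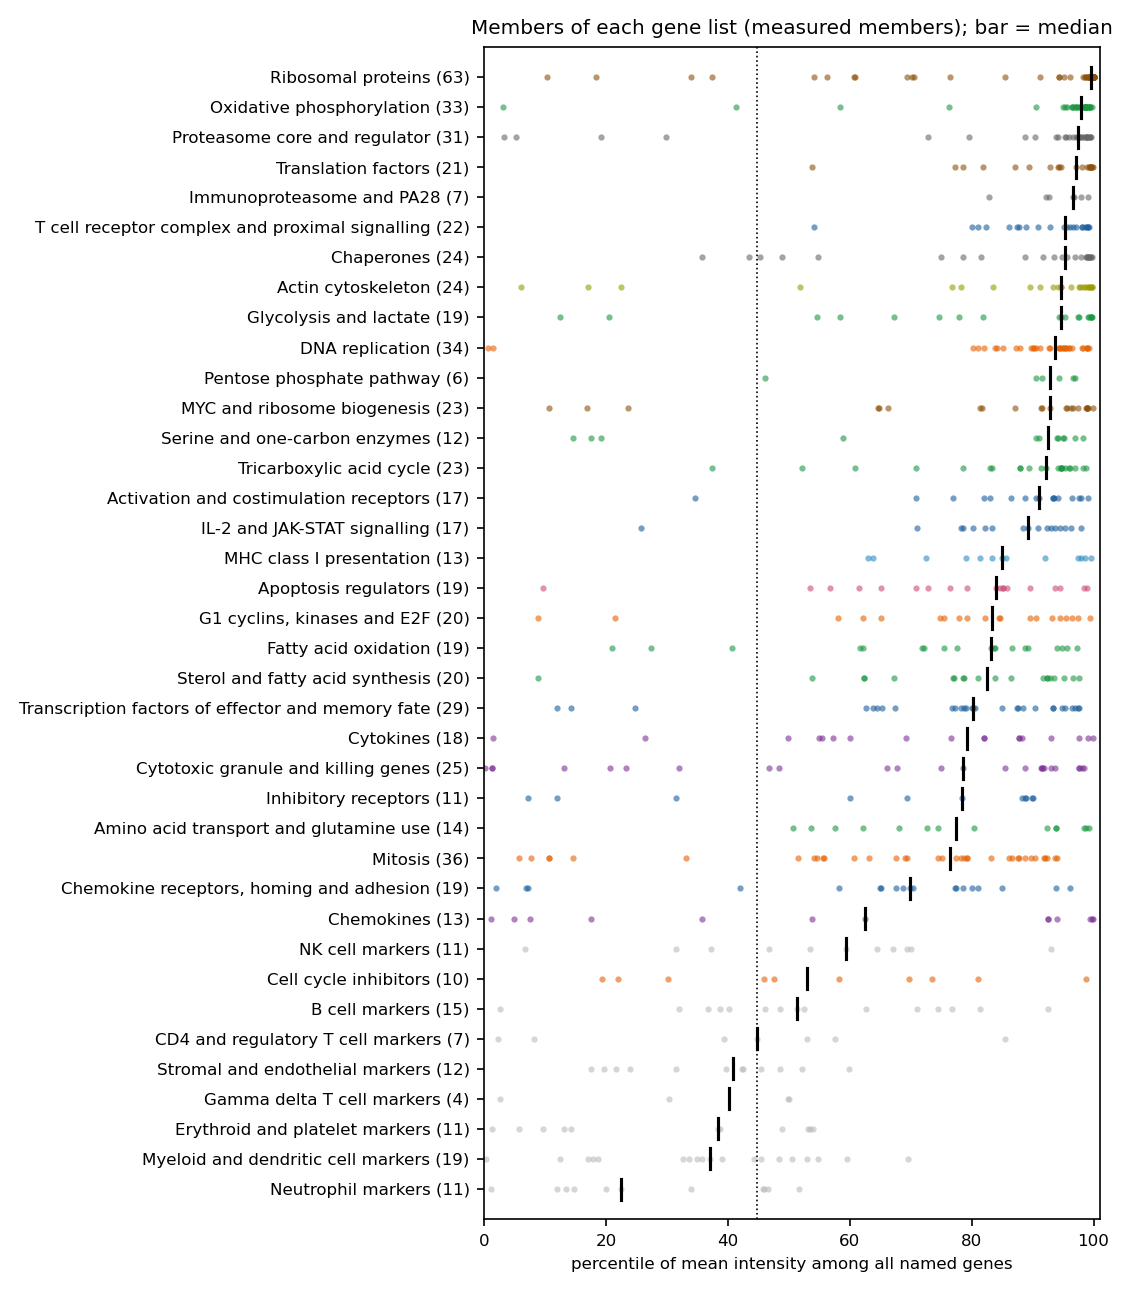
Percentile of mean intensity for the genes of each list, with 1 row per list, a point per gene, a bar at the list median and a dotted line where the background limit falls; colours group related lists. Ribosomal proteins, oxidative phosphorylation and the proteasome sit near the right edge, with medians of 99.6, 97.9 and 97.5, and markers of neutrophils sit at a median of 22.4.

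The label CD8+ T cell was set against its defining markers. All 22 measured genes of the T cell receptor complex and its proximal signalling were above background, as were 50.1% of all genes, and 14 lay in the brightest 10%, with a median percentile of 95.4. Cd8b1, the CD8 beta chain, was at rank 190 with 4752.9 and 4900.5, and its other 2 probes gave 666.2 on both arrays, and 548.8 and 605.6. Cd3d, a signalling chain of the receptor complex, read 2665.4 and 2605.8, and Cd3g, its partner chain, read 1685.6 and 1901.3. Both chains were far above background on both arrays. Thy1, a surface glycoprotein of mouse T cells, read 4149.4 and 4031.9, but only 35.4 and 42.3 on its other probe. Cd52, a short lymphocyte surface peptide, read 5215.1 and 5727.5.

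Cd8a, the CD8 alpha chain that defines the lineage, went against this pattern. Its better probe read 38.8 and 36.6, barely over the limit, and its other probe read 30.7 and 28, within background. All 3 probes of the partner chain Cd8b1 were above background. The cause of the low Cd8a signal was not tested. Cd4, the co-receptor of helper T cells, read 34.6 and 32.2 and was not above background on both arrays.

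Many receptors of activation and costimulation were bright. Of 17 measured, 16 were above background and 10 in the brightest 10%, and none of these counts was compared with resting cells. Tfrc, the transferrin receptor that brings iron into growing cells, read 4723.3 and 4874.8, and its second probe read 4214.2 and 5080.7. Cd69, an early activation marker that retains cells in tissue, read 2511.6 and 2590.6, and 149.2 and 113.6 on its other probe. The costimulatory receptors Cd27 (1972.7 and 2285.2) and Tnfrsf4, also called OX40 (1452.5 and 1603), were close behind. Il2ra, the alpha chain that gives the IL-2 receptor its high affinity, read 999.7 and 843.5. The beta and gamma chains of that receptor, given here after their values were seen, were dimmer. Il2rb read 143 and 140.3, and Il2rg read 82.7 and 89.6. Cd44, the adhesion receptor by which the cells were described, read 748.5 and 874.7 on its brightest probe, and 7 of its 9 probes were above background on both arrays. Cd7 was at background with 33.3 and 32.1.

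Inhibitory receptors were dimmer. Of 11 measured, 8 were above background, 0 lay in the brightest 10%, and the median percentile was 78.4. Cd160 read 488.2 and 504.3, and Ctla4, which competes with CD28 for its ligands, read 543.4 and 443.3. At ranks 2201 and 2211, Cd160 and Ctla4 lay just outside the 2195 genes of the brightest 10%, so the count of 0 depends on that cut. Lag3, which binds MHC class II, read 434.4 and 394.4. Pdcd1, encoding PD-1, was only slightly over the limit at 43.1 and 44.6. Klrg1, a marker of terminally differentiated effectors, was at background with 29.5 and 28.6.

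The cytotoxic genes split. Of 25 measured, 17 were above background and 10 in the brightest 10%. Prf1, encoding the pore-forming perforin, read 3386.6 and 2387.9, at rank 360, and its other probe read 223.5 and 243.3. Srgn, the proteoglycan that packs granule contents, read 2831.7 and 2411. Nkg7, a granule membrane protein of killer cells, read 2067.5 and 2161.2. These granule genes were far above background on both arrays.

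The granzymes, the serine proteases of the granule, were not. Of 9 measured granzymes, 2 were above background and 0 lay in the brightest 10%. Those above it, named here after their values were seen, were Gzmm with 58.2 and 63.3 and Gzmd with 35.2 and 34.6. Gzmb, the granzyme that cleaves caspases, read 32.3 and 30.2 on its only probe. Gzmc, with 26.8 and 23.8, Gzmf, with 26.8 and 27.9, and Gzmg, with 27.6 and 32.4, were also at background. Serpinb9, an inhibitor of granzyme B that protects killer cells, read 27.8 and 26.8. No probe carried the name Gzma. A probe at background does not show that a transcript was absent: 3 of 14 subunits of the 20S proteasome core, an enzyme that every cell builds whole, were likewise at background, as described with the proteasome below.

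**Figure D3:**
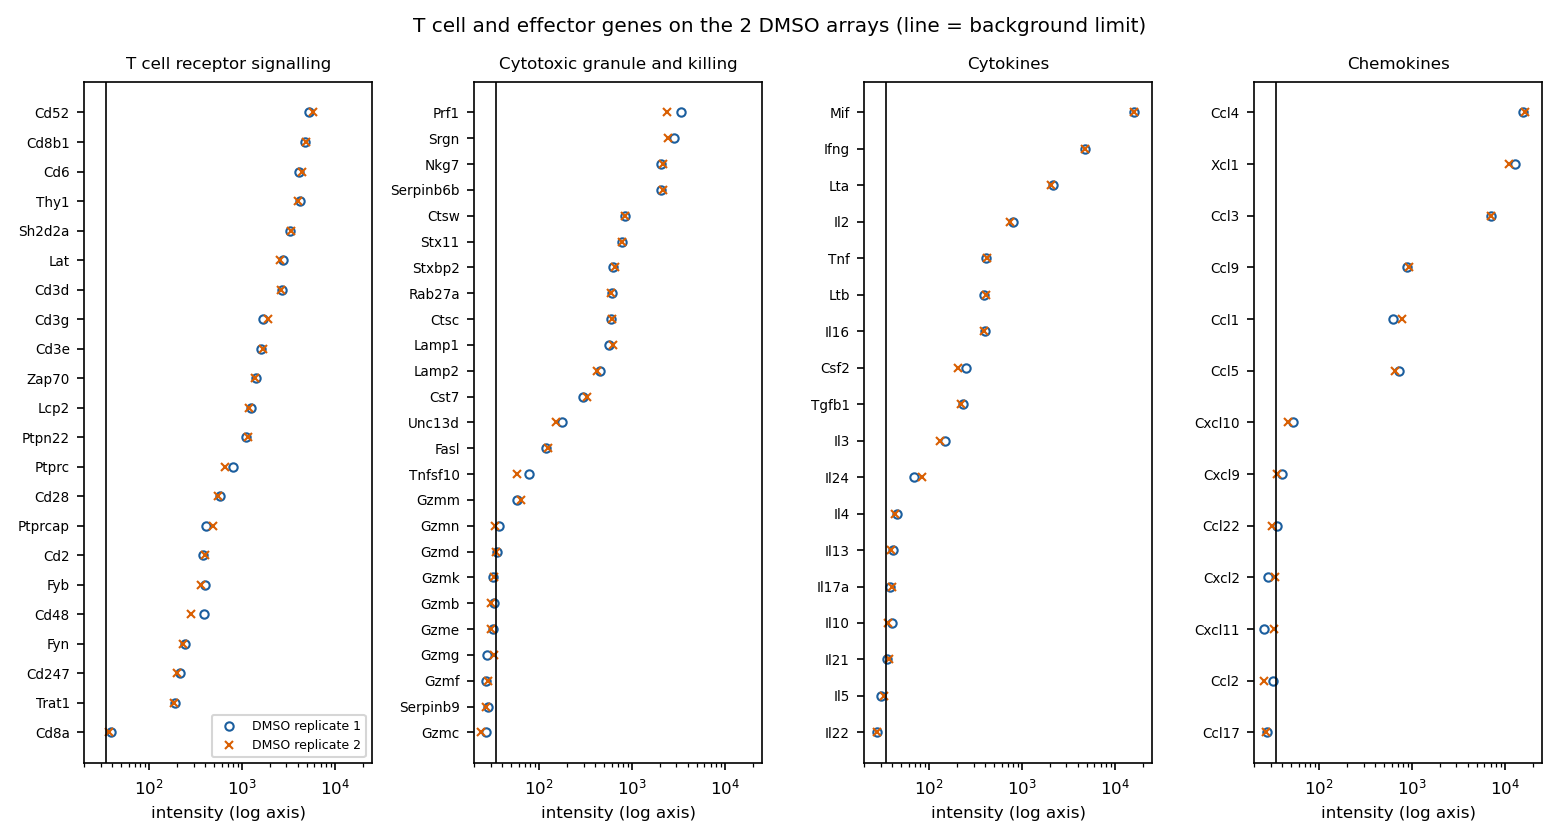
Intensity of effector and T cell genes on each of the 2 DMSO arrays, on a log axis in arbitrary units, with the background limit of 34.5 marked. Circles are replicate 1 and crosses replicate 2. Ccl4, Xcl1, Ccl3, Ifng and Prf1 lie far to the right of the limit, whereas Gzmb and Ccl17 lie below it and Cd8a just above it, and the arrays nearly coincide for most genes.

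Cytokine and chemokine genes held some of the brightest effector signals. Of 18 cytokines, 16 were above background and 4 in the brightest 10%. Ifng, encoding interferon gamma, the main activator of macrophages, was at rank 195 with 4777.1 and 4696.5, and its other probe gave 4501.5 and 4643.1. Lta, encoding lymphotoxin alpha, read 2170.8 and 2055. Il2, the T cell growth factor, read 792.8 and 748.8. Both arrays thus held IL-2 message although the medium supplied the cytokine. Tnf read 406.5 and 416.7, and Csf2, encoding GM-CSF, read 251.6 and 206.3. Tgfb1 (232.8 and 220.9) and Il3 (147.8 and 130.2), also named after their values were seen, were well above the limit. Several cytokines of helper and regulatory subsets lay near the limit. Il4 (44.6 and 42.7), Il10 (40.2 and 36.2) and Il21 (35 and 36.6), named here after their values were seen, were slightly over it, and Il5 (30.5 and 32.8) and Il22 (27.3 and 27.5) were at background.

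Of 13 chemokines, 8 were above background and 6 in the brightest 10%. Besides Ccl4, the inflammatory chemokine Ccl3 read 7077.2 and 7020.4. Ccl5, which effector and memory CD8 cells store, read 725.8 and 660. Ccl9 read 869.6 and 919.7, and Ccl1, a ligand of CCR8, read 628.4 and 774.5. The myeloid and stromal chemokines Ccl2 (31.4 and 25.7) and Ccl17 (27.6 and 26.9) were at background.

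Among receptors for migration and adhesion, 15 of 19 were above background but only 2 in the brightest 10%. These were Selplg, the P-selectin ligand, with 1338.7 and 1419.2, and Ccr7, which guides T cells into lymph nodes, with 940.1 and 830.5. Il7r, the receptor for the survival cytokine IL-7, read 145.9 and 152.9. S1pr1, needed to leave lymphoid organs, was at background with 29.6 and 25.8.

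Of 29 transcription factors of effector and memory fate, 26 were above background and 9 in the brightest 10%. Irf8 read 2500.1 and 2042.9, and Irf4, whose level follows the strength of receptor signalling, read 1811.2 and 1624.6. Egr1, an immediate early gene, read 2056.7 and 2003.9. Bach2, a repressor that restrains effector genes, read 1060.6 and 1211.6. The paired T-box factors were both detected: Eomes read 865.5 and 758.1, and Tbx21, encoding T-bet, read 310 and 285.4. Prdm1, encoding Blimp-1, which promotes terminal differentiation, was at background with 33.8 and 29.1. So was Runx3, a factor of CD8 lineage choice (29.6 and 30.1), and no probe carried the name Tcf7.

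In the IL-2 and JAK-STAT list, 16 of 17 genes were above background and 8 in the brightest 10%. Cish, a feedback inhibitor induced by STAT5, read 2454.2 and 2464.6. Stat5a, the transducer of IL-2 signals, read 606.7 and 738, and Stat5b was at background with 31 and 32.1. The survival genes Mcl1 (1044.3 and 910.1) and Bcl2 (925.2 and 760.8) were in the brightest 10%, and Bcl2a1d, a BCL2 relative whose gene has near-identical copies that a probe may not separate, read 4540.6 and 4047.4.

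A few promoters are shown for the cytokine genes because their sequence could be set beside their signal. The sequences are RefSeq's for mouse build GRCm38.p6, from 250 bases before to 50 after the first listed start of each gene, and the motifs were chosen with the values known. Capitals mark TATAAA, looked for on the gene's own strand between 40 and 16 bases before the start. Ifng (chr10:118440796-118441095, plus strand) and Il2 (chr3:37125905-37126204, minus strand) each hold it once.
Ifng: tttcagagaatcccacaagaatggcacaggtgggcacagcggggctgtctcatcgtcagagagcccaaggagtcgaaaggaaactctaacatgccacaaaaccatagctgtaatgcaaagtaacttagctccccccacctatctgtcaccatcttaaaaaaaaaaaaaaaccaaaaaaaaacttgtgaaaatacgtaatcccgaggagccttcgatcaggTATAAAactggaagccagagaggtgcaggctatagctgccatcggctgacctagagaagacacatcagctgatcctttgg
Il2: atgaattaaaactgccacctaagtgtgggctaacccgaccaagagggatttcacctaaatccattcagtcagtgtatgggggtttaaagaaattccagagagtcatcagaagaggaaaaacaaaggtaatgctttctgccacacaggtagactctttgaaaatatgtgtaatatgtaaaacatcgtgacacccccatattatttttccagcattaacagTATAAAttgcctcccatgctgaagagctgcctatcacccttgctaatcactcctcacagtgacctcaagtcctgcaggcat
Of the 20 above-background cytokines and chemokines with a promoter in the RefSeq table, 5 held TATAAA in that window (Ifng, Tnf, Il2, Il13 and Il17a), or 25%. Il13 (41.2 and 39) and Il17a (37.8 and 39.3), named for this match after their values were seen, were just over the limit. The share was 2.2% over all 27025 promoters and 1.1% over the 8108 promoters of genes above background. Their median count of CG dinucleotides was 5.5, against 21 in all promoters of genes above background. A match describes the letters only.

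Many of the measured glycolytic enzymes were bright. Of 19 measured genes of glycolysis and lactate, 17 were above background and 11 in the brightest 10%, with a median percentile of 94.6. Ldha, which makes lactate from pyruvate, was the brightest at rank 62 with 11945 and 11444.5. Tpi1 (9944.5 and 9456.3), Gapdh (9593.5 and 9397.6) and Pgk1 (9628.3 and 7793.2), successive enzymes of the pathway, followed. The other probes of Pgk1 read 49.6 and 43, and 37.1 and 34.3. At the entry of the pathway, Slc2a1, the glucose transporter GLUT1, read 2121.5 and 2191.8. Slc16a1, the lactate transporter MCT1, was at background with 31.4 and 30.4, and no probe carried the name Hk2, the hexokinase that activated T cells are known to use. The names Gpi1 and Eno1 had no probe either. Hk1, another hexokinase, read 117.8 and 120, and Eno2, an enolase, read 41 and 41.8. Of 6 measured enzymes of the pentose phosphate pathway, 5 were above background and all 5 were in the brightest 10%, with Tkt, a transketolase, at 1656 and 1886.7.

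Genes of oxidative phosphorylation also ranked high. Of 33 measured, 31 were above background and 29 in the brightest 10%, with a median percentile of 97.9. Atp5b, the catalytic beta subunit of ATP synthase, read 11253 and 12379.9, close to the values of Ldha. Cox5b and Cox5a, nuclear-encoded subunits of cytochrome oxidase, read 6421.6 and 6204.6, and 6260.1 and 6171.6. Ndufs1, a core subunit of complex I, was at background with 26.9 and 29.3. In the tricarboxylic acid list, 21 of 23 genes were above background and 13 in the brightest 10%, with a median percentile of 92.2. Acly, which turns exported citrate into acetyl-CoA for lipid synthesis, read 3687.4 on both arrays. Sdha, the catalytic subunit of succinate dehydrogenase, was at background on both of its probes, while its partner Sdhb read 1215.2 and 1127.7.

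Fatty acid oxidation was dimmer in rank, with 16 of 19 genes above background, 4 in the brightest 10% and a median percentile of 83.1. Etfa, an electron carrier for acyl-CoA dehydrogenases, read 2013.2 and 1872.8. Cpt1a, the carnitine palmitoyltransferase that admits long chains to mitochondria, was at background on both probes, with 33.2 and 28.7 on the better. Of 20 genes of sterol and fatty acid synthesis, 19 were above background and 8 in the brightest 10%, with Fdps, a synthase of the mevalonate pathway, at 2175.9 and 2348.

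Of 14 genes of amino acid transport and glutamine use, which include polyamine enzymes, 13 were above background and 6 in the brightest 10%, with a median percentile of 77.4. Odc1, the rate-limiting enzyme of polyamine synthesis, was at rank 157 with 5884.1 and 5397.6, and Srm, spermidine synthase, read 3409.2 and 2915.2. Psat1, of serine synthesis, read 2740.2 and 2792.7, and Mthfd2, a mitochondrial folate enzyme of proliferating cells, read 1698.2 and 1714.3. Of 12 serine and one-carbon enzymes, 9 were above background and 8 in the brightest 10%. Psph, the final enzyme of serine synthesis, was at background with 30.6 and 30.5.

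**Figure D4:**
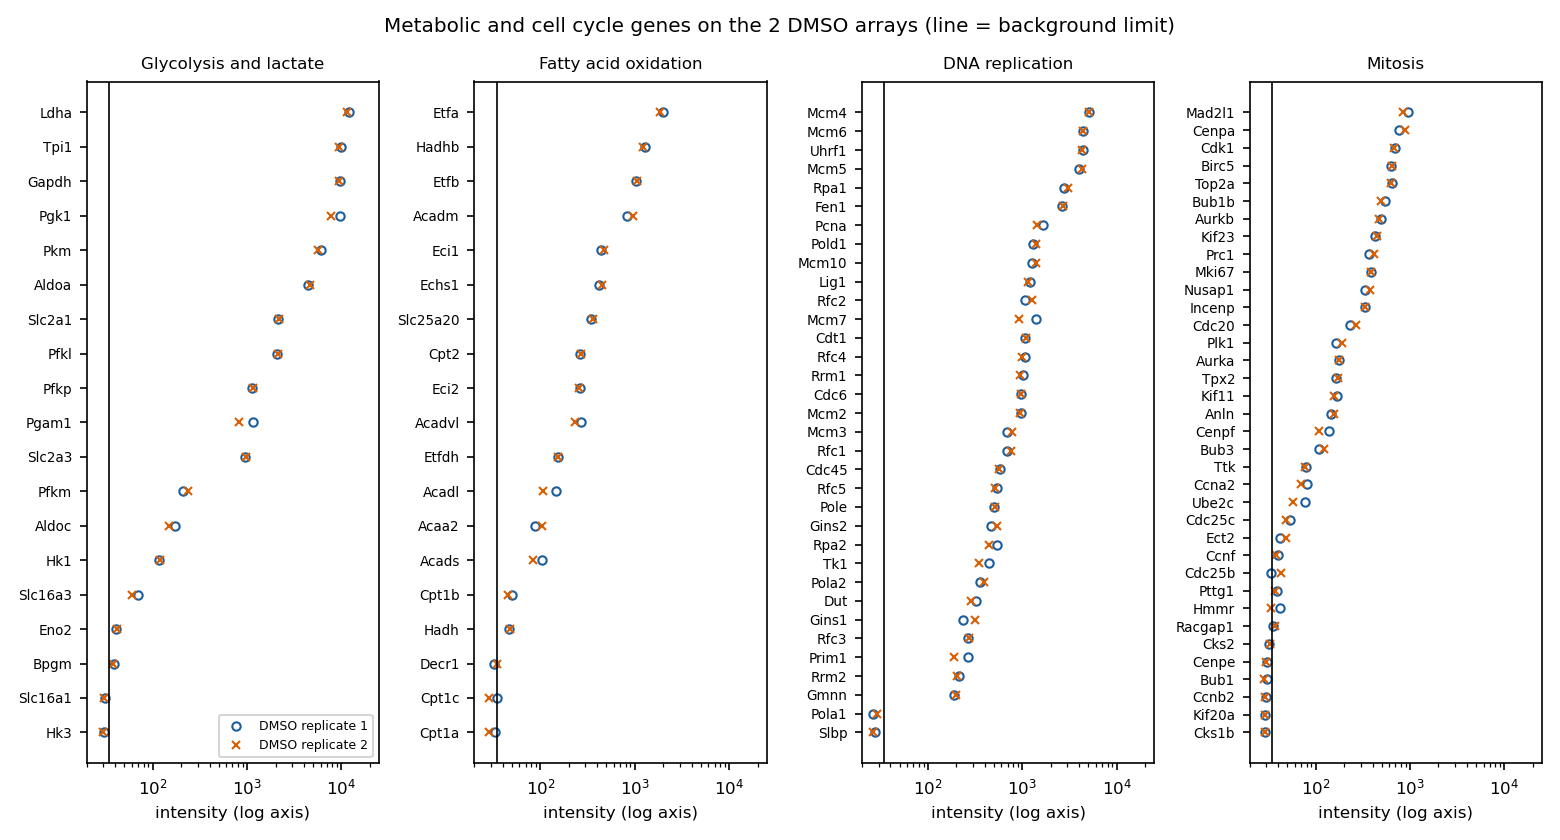
Intensity of metabolic and cell cycle genes on each of the 2 DMSO arrays, on a log axis in arbitrary units, with the background limit of 34.5 marked. Genes of glycolysis, fatty acid oxidation, DNA replication and mitosis have a panel each, and circles and crosses are replicate 1 and replicate 2. Ldha (11945 and 11444.5) lies farthest to the right, Mcm4 (5113.3 and 5039.3) and Etfa (2013.2 and 1872.8) lead their panels, and Cpt1a and Ccnb2 lie below the limit.

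Genes of DNA replication ranked high. Of 34 DNA replication genes, 32 were above background and 23 in the brightest 10%, with a median percentile of 93.6. Mcm4 (5113.3 and 5039.3), Mcm6 (4433.1 and 4384.5) and Mcm5 (4001.9 and 4299.4), subunits of the replicative helicase, were among the 4 brightest of the list. The other probes of Mcm4 read 109 and 102, and 95.3 and 101.2. Uhrf1, which carries DNA methylation through replication, read 4408.5 and 4274.1, but 49.8 and 53 on its other probe. Pcna, the sliding clamp, read 1640.8 and 1421.6. Pola1, the catalytic subunit of polymerase alpha, was at background with 26.2 and 28.7.

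Of 36 mitotic genes, 28 were above background and 6 in the brightest 10%, with a median percentile of 76.4. Mad2l1, of the spindle checkpoint, read 941.7 and 840.6, and Cdk1, the mitotic kinase, read 688.2 and 675.7. Cdk1 had 3 probes, of which 1 was above background on both arrays. Mki67, the proliferation antigen Ki-67, read 382.2 and 385.4. Cks1b (28.7 and 28.8), Kif20a (29 and 29.3) and Ccnb2, cyclin B2 (30 and 29.3), were at background. The whole mitotic list was thus spread between background and the brightest 10%.

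Of 20 genes of G1 cyclins, their kinases and E2F factors, 18 were above background and 7 in the brightest 10%. Ccnd2, a D-type cyclin that mitogens induce in lymphocytes, was the brightest at rank 142 with 6027.5 and 6146.6. Cdk2 read 1585.7 and 1466.4, and Cdk4, a partner of D-type cyclins, read 1142.9 and 1240.9. Among 10 inhibitors of division, 6 were above background, and Btg1, an antiproliferative gene, was the only member in the brightest 10%, at 3691.6 and 3505.4. Cdkn1a, encoding p21, read 196.7 and 221.

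Promoters of a replication gene, a mitotic gene and a ribosomal gene are shown to set the letters of these groups side by side, on the same RefSeq windows. Mcm3, a helicase subunit at 692.9 and 776.4, was picked after its sequence and values were seen. In Mcm3 (chr1:20820263-20820562, minus strand) capitals mark overlapping matches on the opposite strand to TTTCCCGC and TTCCCGCC, E2F-type letters. In Cdk1 (chr10:69352863-69353162, minus strand) they mark CCAAT, found there as its reverse complement, and TTTGAA, the letters of a cell cycle homology region. In Rps2 (chr17:24719813-24720112, plus strand) they mark the reverse complement of CCGGAAG, an ETS-type motif.
Mcm3: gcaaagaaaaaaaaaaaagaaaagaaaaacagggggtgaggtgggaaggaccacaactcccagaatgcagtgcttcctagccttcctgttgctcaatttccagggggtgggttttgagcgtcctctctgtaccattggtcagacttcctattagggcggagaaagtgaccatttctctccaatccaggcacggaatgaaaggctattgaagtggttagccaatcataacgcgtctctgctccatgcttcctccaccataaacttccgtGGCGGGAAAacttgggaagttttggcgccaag
Cdk1: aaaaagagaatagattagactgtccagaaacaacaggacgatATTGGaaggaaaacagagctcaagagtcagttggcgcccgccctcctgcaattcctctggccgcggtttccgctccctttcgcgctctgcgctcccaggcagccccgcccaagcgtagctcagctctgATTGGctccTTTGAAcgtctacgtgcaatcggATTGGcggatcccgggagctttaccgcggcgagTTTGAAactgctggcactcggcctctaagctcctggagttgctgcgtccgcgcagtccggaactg
Rps2: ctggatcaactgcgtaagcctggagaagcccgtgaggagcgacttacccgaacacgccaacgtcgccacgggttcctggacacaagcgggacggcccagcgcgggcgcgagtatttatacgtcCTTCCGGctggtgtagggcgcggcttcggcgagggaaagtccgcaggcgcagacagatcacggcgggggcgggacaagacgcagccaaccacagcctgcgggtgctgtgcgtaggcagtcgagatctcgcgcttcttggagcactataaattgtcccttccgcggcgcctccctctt
Both strands were searched. CCAAT stood in 25 of 30 mitotic promoters (83.3%) and 18 of 28 replication promoters (64.3%), against 37.9% of all promoters and 39% of those of genes above background. TTTGAA stood in 22 of the mitotic promoters (73.3%), against 18.1% of all and 12.3% of those of genes above background. The E2F-type letters stood in 9 of the replication promoters (32.1%), against 2.8% of all and 5.3% of those of genes above background, and in 0 of the mitotic promoters. CCGGAAG stood in 23 of 52 ribosomal protein promoters (44.2%), against 9.1% of all, 19.4% of those of genes above background and 25.4% of those in the brightest 10%. It also stood in 9 of 25 proteasome promoters (36%). The median promoter held 23.5 CG dinucleotides in the mitotic list, 21.5 in the replication list and 21 in the ribosomal protein list. The median was 21 for genes above background and 7 for all promoters. The sets were not matched for base composition, and its part in these shares was not tested.

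Growth and protein turnover genes were among the brightest lists. Of 63 ribosomal protein genes, 58 were above background, 50 in the brightest 10% and 40 in the brightest 1%. Rps23, Rpl17 and Rpsa were nevertheless at background, with Rps23 at 31.2 and 28. All 21 translation factors were above background. Nop58, of small nucleolar ribonucleoproteins, read 4589.8 and 4338.8, with its other probe at background (31.8 and 26.2). Myc, the factor that drives growth on activation, was itself modest at 205.8 and 218.4. Its other probe was at background with 29.4 and 28.5.

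The proteasome, the target of the compounds used on the cells of the other arrays, was well detected at baseline. Of 31 subunits, 27 were above background and 24 in the brightest 10%. Psma2, an alpha subunit of the core, read 8213.1 and 9108.4, and Psmb5, the chymotrypsin-like catalytic subunit, read 909.1 and 940.6. Psma1 (27.3 and 29), Psma3 (28 and 29.3) and Psma6 (31.1 and 30.4), which belong to the same core, were at background. Of 7 immunoproteasome and PA28 genes, all 7 were above background, with Psme1, an activator subunit, at 4231.7 and 4786.6 and Psmb8, an inducible catalytic subunit, at 2653 and 2493.3. Hspa8, the constitutive HSC70 chaperone, read 12416.1 and 10863.9, whereas the heat-inducible Hspa1a was not above background on both arrays (36.9 and 34.2). B2m, the light chain of MHC class I, read 10921.9 and 10548.4, and Actb, beta actin, read 10548.4 and 11945.

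Markers of other cell types were mostly near background, with exceptions. Of 15 B cell markers, 9 (60%) were above background, against 50.1% of all genes, and the summed intensity of the 15 was 1525.6 and 1703.8. Such sums, here and below, include the background, near 30.7 for each gene, and so grow with the number of genes in a list. Igh-6, the immunoglobulin mu chain, read 652.5 and 756.2, and its other probe read 564.8 and 609. Cd79b, which signals for the B cell antigen receptor, read 115.5 and 117.3. Igk-C (199.1 and 229), Cd74 (80.5 and 93.5) and H2-Aa (52.9 and 45.7) were also above background. So was H2-Ab1 (125 and 155.2), on all 3 of its probes. H2-Eb1, Fcer2a and Ms4a1 were slightly over the limit. Cd22 (32.1 and 32.6) and Blk (28 and 27.8) were at background.

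Of 11 NK cell markers, 7 (63.6%) were above background, against 50.1% of all genes, with sums of 1232.4 and 1260. Klrd1, encoding CD94, which activated CD8 T cells also express, made up most of these sums at 735.3 and 782.2. Klra7 (82.1 and 81.3), Klre1 (74.9 and 79.9), Klra3 (64.8 and 65) and Klrc1 (59.2 and 49.3) were also above background. Klrk1 (41.1 and 44) and Klra1 (38.5 and 36.2) were slightly over the limit. Ncr1, which defines NK cells, was at background with 29.8 and 28.1. Of 7 markers of CD4 and regulatory T cells, 3 were above background, with sums of 516.1 and 514.7. Foxp3, the factor of regulatory T cells, read 315.4 and 310.7 on its brightest probe, but only 40.1 and 38.8 on the next and background on the remaining 2.

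Myeloid markers were above background in 4 of 19 (sums of 682.3 and 680.2), neutrophil markers in 1 of 11 (sums of 351.1 and 354.1), erythroid and platelet markers in 4 of 11 (sums of 358.2 and 361.7) and stromal markers in 4 of 12 (sums of 400.5 and 415.2). By mean over the arrays, the median member of these lists read 33.05, 31.15, 33.25 and 33.7 in that order, near the background mode of 30.7. The neutrophil gene above the limit was Mmp9, a secreted protease, with 35.5 and 37.4. Gamma delta T cell markers were above it in 1 of 4 (sums of 134 and 129.4), the segment Tcrg-V4 with 35.7 and 35.9. The granule genes and cytokines described above are shared with NK cells, and the part of any other cell type in those values was not tested.

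The arrays were close to each other. Over the 10991 genes above background the median difference was 0.09 on the log2 scale, 95% of genes differed by at most 0.30, and 10 genes differed by more than 1.5-fold. The log2 intensities correlated across these genes with Pearson's r of 0.9969, as a description, since genes are not independent replicates. The larger differences leaned to lower values on replicate 2: of the 5928 genes at 3 times the limit or more, the 20 with the largest differences were all lower there, while over all of them 3127 were higher and 2777 lower. Zbtb2, a zinc finger gene, read 1427 and 611.6. Mcm7, a helicase subunit, read 1392.9 and 917.6, and Neat1, the scaffold RNA of paraspeckles, read 286.4 and 179.2. Prf1, at a difference of -0.50, shared this lean, so the levels of these genes are less certain than those of most.

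**Figure D5:**
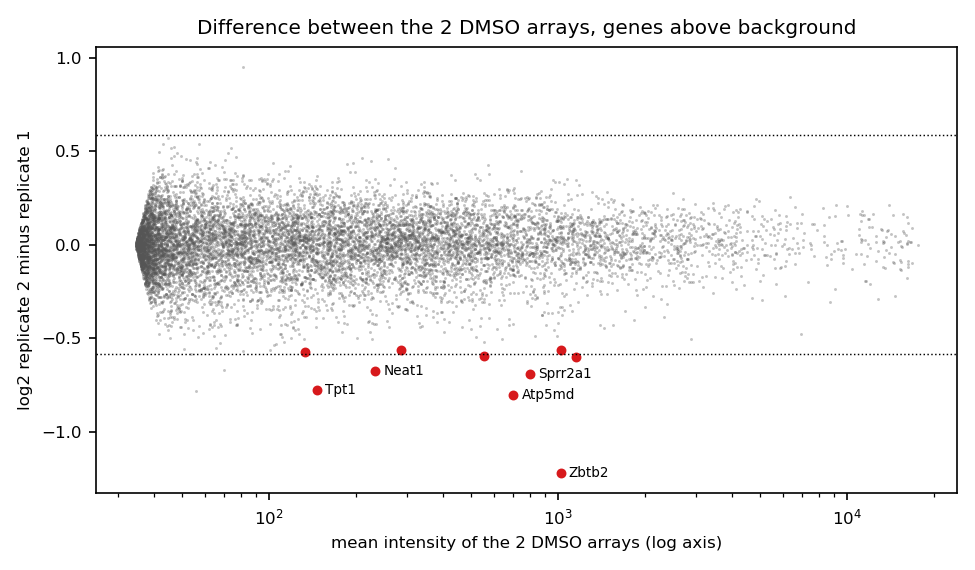
Difference between the arrays (log2 of replicate 2 minus log2 of replicate 1) against mean intensity on a log axis, a point per gene above background. Most of the 10991 points lie close to 0, with a median absolute difference of 0.09, and the largest differences, such as Zbtb2 at -1.22, lie below 0.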

How the data were processed

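Total RNA of 2 DMSO arrays was analysed out of 6. The authors deposited a table of array intensity values on a linear scale, rounded to 1 decimal. Sorted values of both columns are identical, so the table had been quantile-normalized; a change in total RNA cannot be seen in it. Which scanner software was used, and whether background was subtracted, is not given in the sources used here. The 4 columns of treated arrays were not used. A second, non-normalized table was not used, since its 6 value columns match no sample label.

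The array has 45281 probes. A gene symbol was given for 35784, never more than 1 each, and 9497 had no symbol. RefSeq (GRCm38.p6) names replaced the array's for 31257 of them, and the other 4527 kept theirs. Each of 21946 genes took its probe of highest mean, and 8521 had several probes. The background limit was the mode plus the one-sided 0.05 normal quantile of the SD below the mode (2.30). The calculation of the limit was checked on simulated data, in which background noise was independent between the arrays. That check cannot give the rate of false calls on the real arrays, where 5.94% of the sensory receptor genes passed. Precision is limited by the 2 arrays.

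Members and lists were chosen with earlier results of these data known. Named genes were the 40 brightest with proper names, up to 8 bright and 4 background members per list, the 10 bright genes that differed most between arrays, and 29 fixed names, of which 4 had no probe of that name. Alternatives changed the limit, probe rule, arrays and background correction (normexp, offset 50). Python 3.11.15, numpy 2.4.6, pandas 2.3.3, matplotlib 3.10.9, R 4.3.3 and limma 3.58.1 were used.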

Additional observations from a re-analysis of the deposited data

How the results depend on the processing

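The count of genes above background was 10991. It was 8694 with the limit at the mode plus 5 SD (42.2), 9037 with the limit at the 99th percentile of sensory receptor probes, 10275 when a gene's probes were averaged, 10990 after normexp correction and 13693 where 1 array was enough. Leaving out each array in turn gave 12383 to 12451. The number of listed genes above background, over all lists but the markers of other cell types and the sensory receptors, was 562, with 532 to 579 under these alternatives. The median array difference was 0.09, and 0.07 after normexp correction. Of the 404 named genes, 306 were above background, and 22, 20 and 9 of them were lost under the stricter limit, the receptor limit and the mean of probes; Cd8a was lost under all of these. Counts of several marker lists of other cell types moved by over 1.5 times. At the mode plus 5 SD, erythroid, neutrophil and gamma delta markers above background fell to 0. Of the 100 brightest genes, 84 were kept with the mean of probes and 97 and 99 without replicate 1 and replicate 2. No paired analysis was possible because only 1 group was described and there is no contrast. With 2 arrays, signals close to the limit of 34.5 cannot be told from background, and a probe at background sets no level for its gene.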

Other observations

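Some gene families outside the lists were counted after their values were seen. Of 60 histone genes, 49 were above background and 25 in the brightest 10%, led by H2ac10 with 9557.8 and 9680.2 on DMSO replicate 1 and replicate 2. Of 23 variable segments of the T cell receptor, 12 were above background, near the share of 50.1% over all genes. Tcrb-V8.2, a beta chain segment, was the brightest of them with 5649.8 and 5634.7, and Trav9n-4, an alpha chain segment, followed with 1789 and 1878.8. All 7 GIMAP GTPases, a family of lymphocyte survival genes, were above background. Of 27 immunoglobulin segments, 6 were above background.

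By annotated type, 9669 of 18490 protein-coding genes (52.3%) and 150 of 675 long non-coding RNAs (22.2%) were above background. Of the 9497 probes without a gene symbol, 3078 (32.4%) were above background, and 33 of the 100 brightest probes on the arrays were among these.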
